A study of Homo sapiens with 12 samples.

Results

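The cyclins, cyclin-dependent kinases (CDKs) and inhibitors that set passage through G1 were followed in 12 RNA-seq libraries made from A549, a cell line grown out of a human lung adenocarcinoma. The members were chosen by gene symbol: the D-type cyclins CCND1, CCND2 and CCND3, the E-type cyclins CCNE1 and CCNE2, the kinases CDK2, CDK4 and CDK6, and the CIP/KIP inhibitors CDKN1A (p21) and CDKN1B (p27). All 10 were found among the 60617 gene identifiers of the deposited tables, and 9 passed the filter on low counts. CCND2 did not.

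Cells of the siYAP/TAZ#1 group received the first combination of siRNAs aimed at YAP1 together with WWTR1, which encodes TAZ, and cells of the siYAP/TAZ#2 group received the second. Cells of the siCo group received a non-targeting control siRNA. Each group had 4 libraries, which the series calls biological replicates, and RNA was taken 24 hours after transfection from cells in medium with serum. All libraries come from a single cell line, the siRNA sequences were not used here, and both combinations are set against the same siCo libraries, so their changes are not independent of each other.

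In G1, growth signals raise the D-type cyclins, which activate CDK4 and CDK6 to phosphorylate the retinoblastoma protein RB. E2F factors are thereby released and switch on the E-type cyclins, which activate CDK2 and carry the cell into S phase. CIP/KIP proteins bind these complexes: they block CDK2, and they also help cyclin D to assemble with CDK4 and CDK6. YAP and TAZ are co-activators of transcription that bind DNA through TEAD factors and are widely linked to proliferation, in lung epithelium as elsewhere.

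Library totals ran from 29.6 to 38.3 (in units of 1e6) estimated counts. Levels across libraries are given as CPM (counts per 1e6 counts after TMM scaling, which corrects for differences in RNA composition), and levels across genes as the authors' TPM (transcripts per 1e6 transcripts, which allows for gene length). YAP1 was at 17.3 to 20.5 CPM in siYAP/TAZ#1 libraries, 16.5 to 19.1 CPM in siYAP/TAZ#2 libraries and 116 to 124.6 CPM in siCo libraries. WWTR1 was at 31.2 to 33.7 CPM in siYAP/TAZ#1 libraries, 29.7 to 35.3 CPM in siYAP/TAZ#2 libraries and 230.0 to 254 CPM in siCo libraries. Every library thus went with its label as knockdown or control. For both genes the CPM ranges of the combinations overlapped, so these CPM values cannot tell siYAP/TAZ#1 from siYAP/TAZ#2 libraries. The epithelial keratins KRT8 and KRT18 were abundant in every group (2503, 2511 and 2383 CPM for KRT8 in siYAP/TAZ#1, siYAP/TAZ#2 and siCo libraries), EPCAM was at 2.26 to 3.22 CPM, and PTPRC, PECAM1 and DCN, markers of blood, endothelium and fibroblasts, averaged under 1 CPM in each group. Of the alveolar type II markers, SFTPB and SFTPC were also under 1 CPM and NAPSA was at 0.831 to 1.51 CPM. COL1A1, which fibroblasts make in quantity, averaged 153 CPM in siYAP/TAZ#1, 117 CPM in siYAP/TAZ#2 and 110 CPM in siCo libraries. Replicate 1 of siYAP/TAZ#2 stood apart from its group on the second principal component. It was the highest or lowest library of its group for 7 of the 9 tested members, as were replicates 2 and 4 of siYAP/TAZ#1. Where a call on a member or on a list gene named here was lost without siYAP/TAZ#2 replicate 1, that value is given. In a bulk library, less of a transcript per cell and fewer cells that carry it cannot be told apart.

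In control-transfected cells CCND1 was by far the most abundant member, at 334 ± 42.2 TPM (SD, n = 4), rank 147 of 60617 genes. CDK4 averaged 106 ± 21.1 TPM and CCND3 104 ± 16.6 TPM, and these neighbours overlapped. Below them came CDKN1A at 71.5 ± 11.5 TPM, CDK6 at 39.5 ± 7.46 TPM, CDK2 at 22.2 ± 4.78 TPM, CCNE1 at 12.7 ± 1.59 TPM, CDKN1B at 8.004 ± 1.51 TPM and CCNE2 at 2.20 ± 0.524 TPM, with no overlap between other neighbours in the order in siCo libraries. In siYAP/TAZ#1 libraries the order of the middle members was CCND3 (113 TPM), CDK4 (108 TPM) and CDKN1A (106 TPM), and in siYAP/TAZ#2 libraries CDK4 (106 TPM), CCND3 (97.3 TPM) and CDKN1A (91.2 TPM). These 3 ranges overlapped in both knockdown groups, whereas in siCo libraries CDKN1A (55.4 to 82.0 TPM) lay below CCND3 (84.2 to 120.1 TPM) and overlapped CDK4 (80.3 to 131 TPM). CCND2 was hardly detected in any group, with sums over 4 libraries of 1 estimated count in siYAP/TAZ#1, 6.01 in siYAP/TAZ#2 and 4 in siCo, and no fold change is given for it.

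Against siCo, 6 members fell and 1 rose with siYAP/TAZ#1, out of 9 tested; over all 21581 genes tested, 18.5% fell and 16.4% rose (34.9% in all) by the same rule (edgeR's quasi-likelihood test, Benjamini-Hochberg adjusted p under 0.05). With siYAP/TAZ#2, 6 members fell and 0 rose, against 19.2% and 19.0% of all genes (38.2% in all). The median log2 change of the 9 tested members was -0.33 with siYAP/TAZ#1 and -0.44 with siYAP/TAZ#2, and that of all tested genes was 0.02 with either. CCND1, CCND3, CDK2, CDK4 and CDK6 fell with both combinations (5 of 9, against 13.3% of all genes), CDKN1A was called in opposite directions, CCNE1 fell only in the siYAP/TAZ#1 test, and CCNE2 and CDKN1B were not called with either. Between the combinations, 2 members were higher and 3 lower in siYAP/TAZ#1 than in siYAP/TAZ#2, where 6.92% and 8.2% of all genes were (15.1% in all). Counting instead the members whose 4 values share no range with those of the other group, 6 lay below and 2 above siCo with siYAP/TAZ#1, where 20.7% and 18.0% of all tested genes did. With siYAP/TAZ#2 6 lay below and 0 above siCo, against 17.7% and 17.0%. In siYAP/TAZ#1 against siYAP/TAZ#2, 2 lay above and 2 below, against 8.91% and 9.31%.

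**Figure D1:**
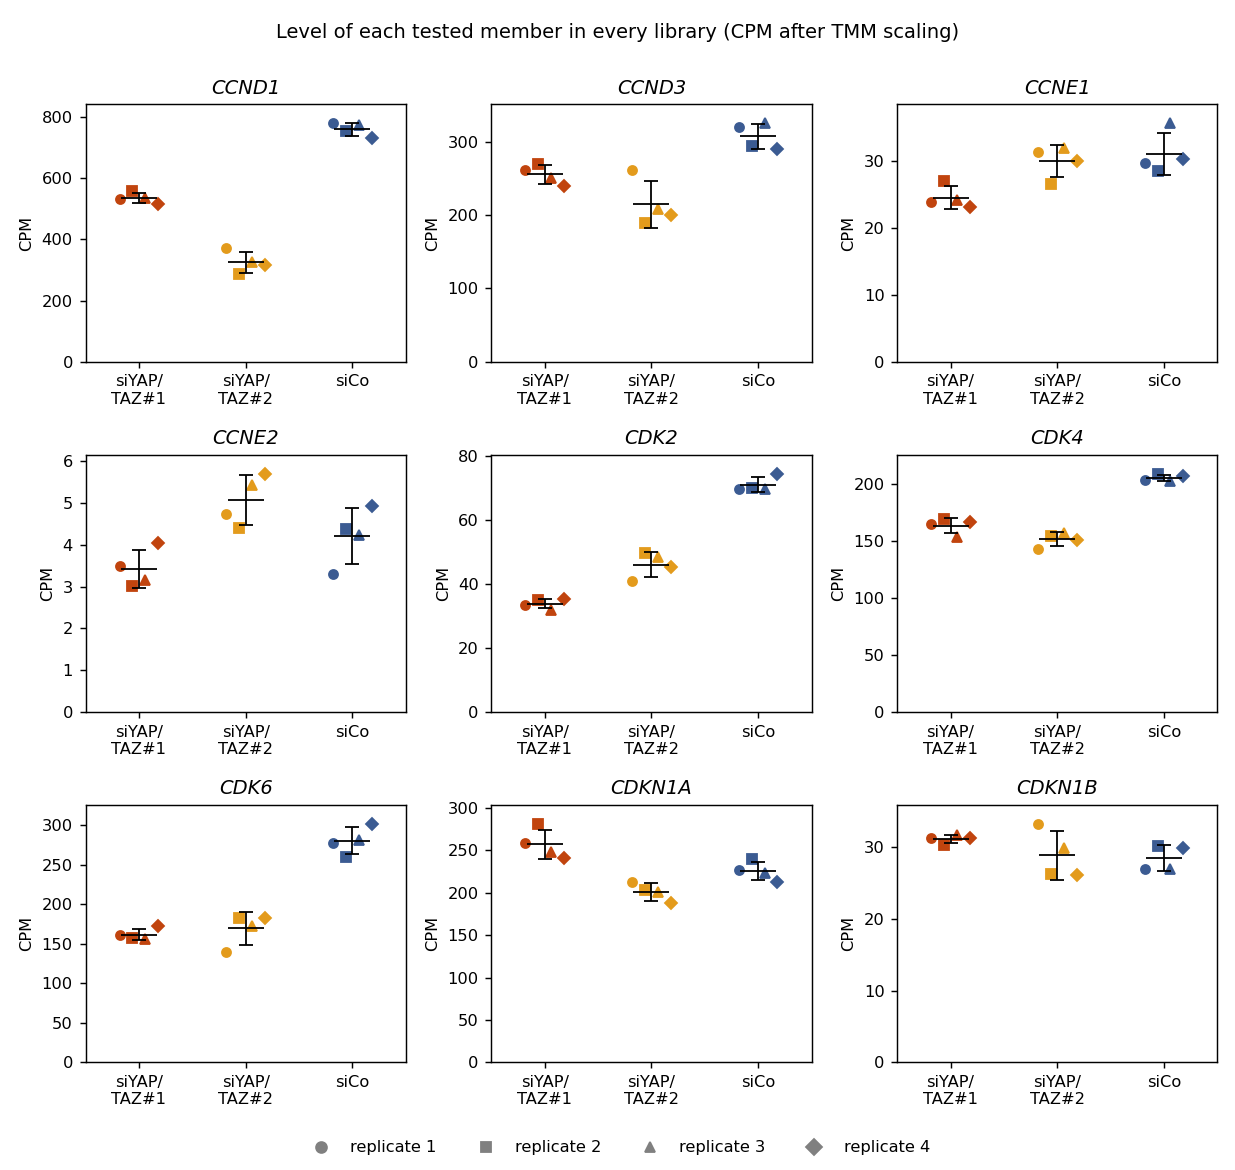
CPM after TMM scaling (vertical axes, starting at 0) of the 9 tested members in each of the 12 libraries, by group; symbols mark the replicate, horizontal lines the mean and bars the SD of 4 libraries. CCND1, CCND3, CDK2, CDK4 and CDK6 lie lower in both knockdown groups than in siCo, with no shared range, while CCNE2 and CDKN1B overlap siCo in at least 1 knockdown group.

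CCND1, the main D-type cyclin of most epithelial cells (chr11:69641087-69654474, plus strand, GENCODE v29 on GRCh38), fell with both combinations, and further with the second. Its levels, in order of replicate number here and below, were 533, 556, 534 and 516 CPM in siYAP/TAZ#1 libraries, 370, 287, 326 and 315 CPM in siYAP/TAZ#2 libraries, and 778, 752, 775 and 731 CPM in siCo libraries. The 3 groups shared no value, with siYAP/TAZ#2 lowest and siCo highest. The log2 change was -0.51 ± 0.067 (SE) with siYAP/TAZ#1 (edgeR adjusted p = 2e-05), which left 70.4% of the siCo level, and -1.23 ± 0.068 with siYAP/TAZ#2 (edgeR adjusted p = 1.23e-09), which left 42.8%. The difference between the combinations was itself past the threshold, at 0.72 ± 0.068 log2 (edgeR adjusted p = 1.08e-06). The highest siYAP/TAZ#2 value was that of replicate 1, and without that library the change with siYAP/TAZ#2 was -1.29.

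CCND3, another D-type cyclin (chr6:41934933-42050357, minus strand), fell less. It measured 262, 270, 251 and 239 CPM in siYAP/TAZ#1 libraries, 261, 189, 208 and 200 CPM in siYAP/TAZ#2 libraries, and 320, 294, 325 and 291 CPM in siCo libraries. Every knockdown library lay below every siCo library, but replicate 1 of siYAP/TAZ#2 sat among the siYAP/TAZ#1 values. The change was -0.27 ± 0.086 log2 with siYAP/TAZ#1 (edgeR adjusted p = 0.0237) and -0.52 ± 0.086 with siYAP/TAZ#2 (edgeR adjusted p = 0.00015). The siYAP/TAZ#1 call was lost when any of 4 libraries was left out (siCo replicate 1 or 3, or siYAP/TAZ#1 replicate 3 or 4; edgeR adjusted p = 0.0594 to 0.072). The combinations differed by 0.25 log2 with edgeR adjusted p = 0.0597, and by 0.36 with edgeR adjusted p = 7.02e-05 once siYAP/TAZ#2 replicate 1 was left out.

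The make-up of the D-type cyclin pool was set out per library, since CCND1 and CCND3 changed by different amounts. CCND1 supplied 71.1, 72.5, 73.3 and 72.6% of D-type cyclin TPM in siYAP/TAZ#1 libraries, 71.2, 62.8, 67.1 and 67.4% in siYAP/TAZ#2 libraries, and 75.8, 76.1, 77.4 and 75.9% in siCo libraries. Both knockdown groups lay wholly below siCo, with differences of -3.95 percentage points for siYAP/TAZ#1 and -9.20 for siYAP/TAZ#2. Taken from CPM, the share was 58.63, 60.35, 61.04 and 61.19% in siYAP/TAZ#2 libraries, so replicate 1 was highest of its group on TPM and lowest on CPM. Both knockdown groups were again below siCo. The combinations overlapped on TPM and not on CPM, where siYAP/TAZ#1 libraries were at 67.06 to 68.31%. The tests given here are on TPM. With a two-sided exact permutation test p was 0.0286 for each, the smallest that 4 against 4 libraries allow, and 0.0714 after adjustment over the 15 tests on such proportions, which misses 0.05.

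With TMM scaling the E-type cyclins gave 1 call against siCo, that of CCNE1 with siYAP/TAZ#1. CCNE1 (chr19:29811898-29824308, plus strand), a binding partner of CDK2, measured 23.9, 27.0, 24.2 and 23.1 CPM in siYAP/TAZ#1 libraries, 31.3, 26.6, 32.02 and 30.1 CPM in siYAP/TAZ#2 libraries, and 29.7, 28.6, 35.6 and 30.3 CPM in siCo libraries. The siYAP/TAZ#1 libraries were all below siCo, while the siYAP/TAZ#2 values ran through the siCo range. CCNE1 fell with siYAP/TAZ#1 by 0.34 ± 0.083 log2 (edgeR adjusted p = 0.00435). With siYAP/TAZ#2 the change was -0.05 (95% interval -0.22 to 0.13, edgeR adjusted p = 0.704). The combinations differed by -0.29 log2 (edgeR adjusted p = 0.0249), a call that was lost when any of 5 libraries was left out (siYAP/TAZ#1 replicate 1, 3 or 4, or siYAP/TAZ#2 replicate 3 or 4; edgeR adjusted p = 0.0556 to 0.0844).

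CCNE2, the other E-type cyclin, was the least abundant of the tested members. It measured 3.49, 3.01, 3.15 and 4.05 CPM in siYAP/TAZ#1 libraries, 4.74, 4.41, 5.43 and 5.70 CPM in siYAP/TAZ#2 libraries, and 3.30, 4.37, 4.24 and 4.92 CPM in siCo libraries. Each knockdown group overlapped siCo, one towards its lower end and the other towards its upper end, and the knockdown groups did not overlap each other. Neither change against siCo was called: -0.30 with siYAP/TAZ#1 (95% interval -0.60 to 0.00, edgeR adjusted p = 0.121) and 0.27 with siYAP/TAZ#2 (95% interval -0.03 to 0.56, edgeR adjusted p = 0.152). The combinations differed by -0.57 ± 0.14 log2 (edgeR adjusted p = 0.0104). With scaling by library size alone CCNE2 was called higher with siYAP/TAZ#2, at 0.45 (edgeR adjusted p = 0.0253). Its change with siYAP/TAZ#1 was then -0.12 (edgeR adjusted p = 0.575).

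The number of estimated counts that 1 TPM of CCNE2 stood for also differed between groups. Set to 100 in siCo, it averaged 139 ± 19.9 in siYAP/TAZ#1 libraries, 142 ± 22.98 in siYAP/TAZ#2 libraries and 100 ± 10.1 in siCo libraries, where every other tested member averaged 94.9 to 105 in the knockdown groups. Single libraries ranged more widely, CCND1 running from 76.8 to 116.5 in siYAP/TAZ#2 libraries. Across all genes the 5th and 95th percentiles were 86.5 and 115 with siYAP/TAZ#1. This figure follows the length of the transcripts to which reads were assigned, and 37.1% of the exonic bases of CCNE2 lie under exons of opposite-strand genes (INTS8 and AC087752.4). Whether the libraries kept strand is not given in the sources used, and the part of transcript choice or of the antisense genes in the CCNE2 values was not tested.

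CDK2, the partner of the E-type cyclins (chr12:55966769-55972784, plus strand), had the largest change of any tested member with siYAP/TAZ#1. It measured 33.4, 34.96, 31.96 and 35.1 CPM in siYAP/TAZ#1 libraries, 40.8, 49.6, 48.3 and 45.3 CPM in siYAP/TAZ#2 libraries, and 69.5, 70.04, 69.8 and 74.4 CPM in siCo libraries. The 3 groups did not touch, with siYAP/TAZ#1 lowest, whereas siYAP/TAZ#2 was lowest for CCND1. The change was -1.07 ± 0.066 log2 with siYAP/TAZ#1 (edgeR adjusted p = 4.4e-09), 47.7% of the siCo level, and rank 311 from the lowest of 21581 genes. With siYAP/TAZ#2 it was -0.62 ± 0.065 log2 (edgeR adjusted p = 1.25e-06), 64.9% of the siCo level. The combinations differed by -0.44 ± 0.066 log2 (edgeR adjusted p = 0.000141), and this difference stayed called in each of the 12 fits that left out a library. Exons of PMEL and AC025162.1 on the opposite strand cover 16.8% of the exonic bases of CDK2.

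CDK4, a kinase of the D-type cyclins (chr12:57747727-57756013, minus strand), fell with both combinations, with smaller changes than CDK2 or CDK6. It measured 165, 169, 153 and 166 CPM in siYAP/TAZ#1 libraries, 143, 154, 157 and 151 CPM in siYAP/TAZ#2 libraries, and 203, 209, 202 and 206 CPM in siCo libraries. Both knockdown groups lay below siCo and overlapped each other. The change was -0.33 ± 0.052 log2 with siYAP/TAZ#1 (edgeR adjusted p = 0.000114) and -0.44 ± 0.052 with siYAP/TAZ#2 (edgeR adjusted p = 5.11e-06). Their difference was 0.11 log2 (95% interval 0.00 to 0.22, edgeR adjusted p = 0.192). Opposite-strand exons of TSPAN31 cover 43.2% of the exonic bases of CDK4, the largest such share among the members.

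CDK6, the other kinase of the D-type cyclins (chr7:92604921-92836594, minus strand), had larger changes than CDK4. It measured 161, 157, 157 and 172 CPM in siYAP/TAZ#1 libraries, 139, 183, 173 and 183 CPM in siYAP/TAZ#2 libraries, and 278, 260, 282 and 301 CPM in siCo libraries. The lowest siCo library was above the highest knockdown library, and replicate 1 of siYAP/TAZ#2 was the lowest of all 12. The change was -0.79 ± 0.079 log2 with siYAP/TAZ#1 (edgeR adjusted p = 9.68e-07) and -0.73 ± 0.079 with siYAP/TAZ#2 (edgeR adjusted p = 2.15e-06). The combinations differed by -0.07 log2 (95% interval -0.24 to 0.10, edgeR adjusted p = 0.684), and by -0.16 (edgeR adjusted p = 0.0378) without siYAP/TAZ#2 replicate 1.

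**Figure D2:**
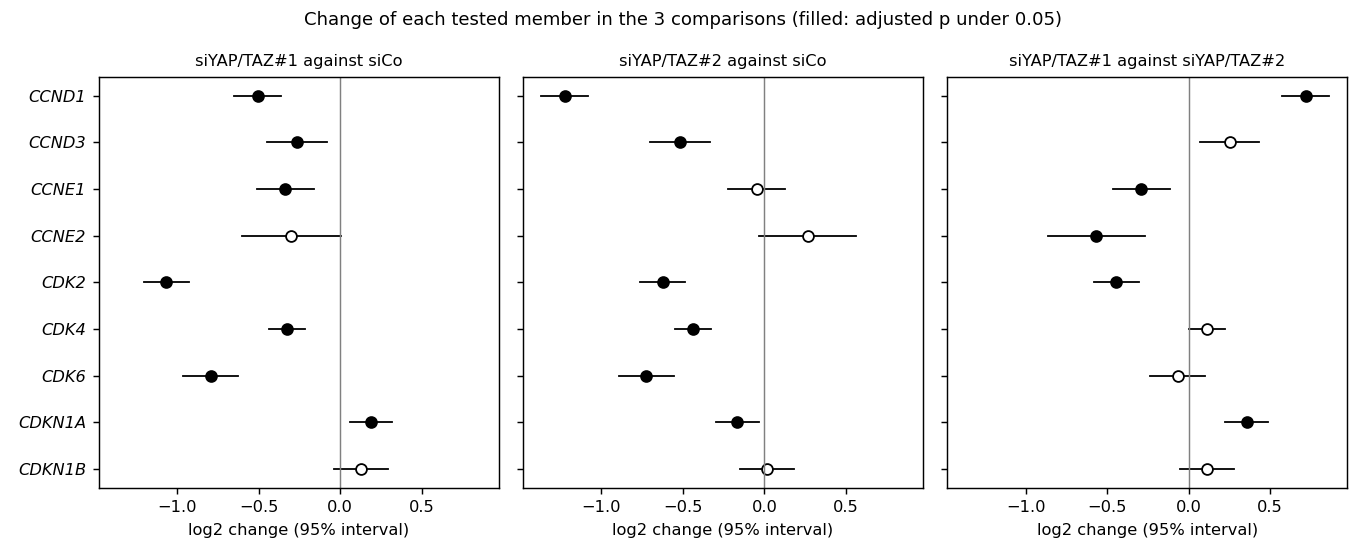
Log2 change (horizontal axes) of the 9 tested members in the 3 comparisons, as edgeR estimates with 95% intervals; filled points have an adjusted p under 0.05. The most reduced member is CDK2 with siYAP/TAZ#1 (-1.07) and CCND1 with siYAP/TAZ#2 (-1.23), and CDKN1A lies on either side of 0.

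The balance between the CDK4 and CDK6 transcripts moved with these changes. CDK6 made up 20.7, 21.3, 22.5 and 22.4% of their joint TPM in siYAP/TAZ#1 libraries, 24.6, 24.7, 22.4 and 22.97% in siYAP/TAZ#2 libraries, and 28.2, 25.4, 28.1 and 26.7% in siCo libraries. Each knockdown library was below each siCo library, with means of 21.7 ± 0.851%, 23.7 ± 1.17% and 27.1 ± 1.35% in siYAP/TAZ#1, siYAP/TAZ#2 and siCo. The two-sided exact permutation p was 0.0286 for either combination against siCo and 0.0714 after adjustment. Taken from CPM, the share differed from siCo by -7.97 percentage points with siYAP/TAZ#1 and -5.01 with siYAP/TAZ#2, again without overlap.

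CDKN1A, the p21 inhibitor, which can hold cells in G1 (chr6:36676460-36687339, plus strand), was called higher with siYAP/TAZ#1 and lower with siYAP/TAZ#2. It measured 258, 281, 248 and 241 CPM in siYAP/TAZ#1 libraries, 212, 203, 201 and 188 CPM in siYAP/TAZ#2 libraries, and 226, 239, 223 and 213 CPM in siCo libraries. The groups formed 3 adjoining ranges with no shared value, siYAP/TAZ#1 above siCo and siYAP/TAZ#2 below it, though the highest siYAP/TAZ#2 library (212.3 CPM) and the lowest siCo library (212.9 CPM) were almost level. The change was 0.19 ± 0.062 log2 with siYAP/TAZ#1 (edgeR adjusted p = 0.0245) and -0.17 ± 0.062 with siYAP/TAZ#2 (edgeR adjusted p = 0.0434).

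Both calls of CDKN1A against siCo depended on the choices of analysis. With scaling by library size alone the change was 0.36 with siYAP/TAZ#1 (edgeR adjusted p = 6.75e-05) and 0.02 with siYAP/TAZ#2 (edgeR adjusted p = 0.811), so that the direction with siYAP/TAZ#2 turned. The siYAP/TAZ#1 call was lost when any of 5 libraries was left out (siYAP/TAZ#1 replicate 1 or 2, or siCo replicate 1, 3 or 4; edgeR adjusted p = 0.0536 to 0.0927). The siYAP/TAZ#2 call was lost for 8 (siYAP/TAZ#2 replicate 2, 3 or 4, siYAP/TAZ#1 replicate 1 or 3, or siCo replicate 1, 2 or 3; edgeR adjusted p = 0.0529 to 0.138). CDKN1A was higher in siYAP/TAZ#1 than in siYAP/TAZ#2 by 0.36 ± 0.062 log2 (edgeR adjusted p = 0.00061) and by 0.34 with scaling by library size alone. This difference was called in all 12 fits that left out a library (edgeR adjusted p = 3.9e-05 to 0.00371). On TPM as deposited it was 0.21 and not called. On TPM rescaled between libraries, chosen after seeing the data, it was 0.30 (limma adjusted p = 0.0197). The changes against siCo were then 0.21 with siYAP/TAZ#1 (limma adjusted p = 0.0486) and -0.09 with siYAP/TAZ#2 (limma adjusted p = 0.376).

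CDKN1B, the p27 inhibitor that holds resting cells out of the cycle (chr12:12715058-12722371, plus strand), was not called in any comparison. It measured 31.2, 30.3, 31.7 and 31.3 CPM in siYAP/TAZ#1 libraries, 33.1, 26.3, 29.8 and 26.0 CPM in siYAP/TAZ#2 libraries, and 27.0, 30.1, 26.9 and 29.8 CPM in siCo libraries. The siYAP/TAZ#1 libraries lay just above all siCo libraries, and the siYAP/TAZ#2 libraries spanned the siCo range. The change was 0.13 log2 with siYAP/TAZ#1 (95% interval -0.04 to 0.29, edgeR adjusted p = 0.232) and 0.02 with siYAP/TAZ#2 (95% interval -0.15 to 0.18, edgeR adjusted p = 0.893). With scaling by library size alone it was 0.30 (edgeR adjusted p = 0.00426) and 0.20 (edgeR adjusted p = 0.0449).

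The ratio of inhibitor to kinase transcripts was higher in each knockdown library than in any siCo library. The summed TPM of CDKN1A and CDKN1B was 0.808, 0.783, 0.769 and 0.716 times that of CDK2, CDK4 and CDK6 in siYAP/TAZ#1 libraries, 0.814, 0.614, 0.614 and 0.6003 times in siYAP/TAZ#2 libraries, and 0.478, 0.506, 0.477 and 0.442 times in siCo libraries. Replicate 1 of siYAP/TAZ#2 lay apart from the other siYAP/TAZ#2 libraries, at the siYAP/TAZ#1 level. The ratio was higher than in siCo by 0.29 with siYAP/TAZ#1 and by 0.19 with siYAP/TAZ#2 (two-sided exact permutation p = 0.0286 each, 0.0714 adjusted), and by 0.13 with siYAP/TAZ#2 without replicate 1. A ratio within a library does not depend on the scaling between libraries, but it can differ between TPM and CPM, as the CCND1 share did. Taken from CPM, the inhibitor to kinase ratio was higher than in siCo by 0.35 with siYAP/TAZ#1 and 0.17 with siYAP/TAZ#2, again without overlap. In the same order, the share of CCNE1 in the E-type pool differed from siCo by 3.21 and 1.55 percentage points on TPM. On CPM those differences were -0.32 and -2.47. The shares that follow are from TPM. The share of CDKN1A in the inhibitor pool, 90.8 ± 0.892% in siYAP/TAZ#1, 89.1 ± 1.38% in siYAP/TAZ#2 and 89.9 ± 0.442% in siCo, overlapped between the groups, as did the share of CCNE1 in the E-type pool, at 88.4 ± 2.64%, 86.7 ± 3.20% and 85.2 ± 3.13% (SD, n = 4 each; two-sided exact permutation p = 0.143 to 0.514 for either share against siCo).

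**Figure D3:**
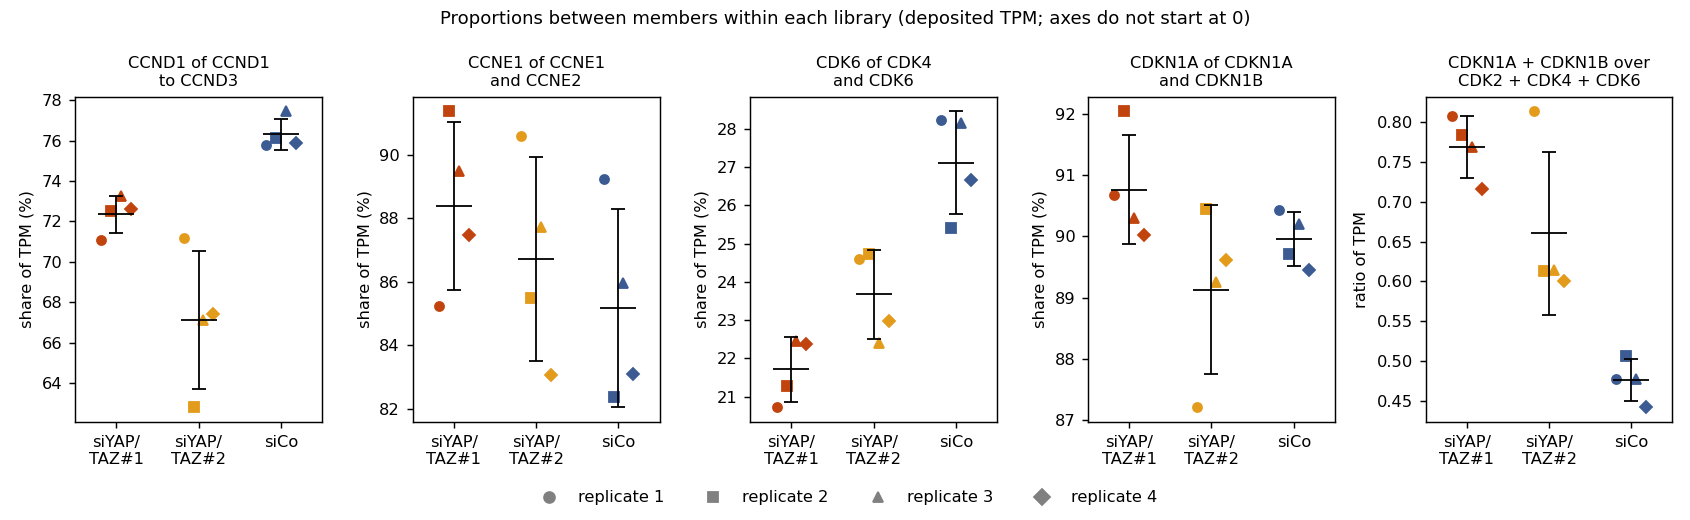
Proportions between members within each library, from the deposited TPM (vertical axes, which do not start at 0), by group; symbols mark the replicate, horizontal lines the mean and bars the SD of 4 libraries. CCND1's share of D-type cyclins and CDK6's share of CDK4 and CDK6 lie lower in both knockdown groups, and the inhibitor to kinase ratio lies higher (means 0.769, 0.661 and 0.476 in siYAP/TAZ#1, siYAP/TAZ#2 and siCo).

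How many members counted as lower turned on the scaling between libraries. TMM factors were 1.00 to 1.07 in siYAP/TAZ#1 libraries, 0.967 to 1.10 in siYAP/TAZ#2 libraries and 0.887 to 0.944 in siCo libraries. Without them the median change of all tested genes moved to 0.20 with siYAP/TAZ#1 and 0.21 with siYAP/TAZ#2, and the share of calls that were higher became 75.5% and 76.2%, where it was 46.9% and 49.7% with TMM. Then 2 members were higher and 3 lower with siYAP/TAZ#1, where 27.2% and 8.83% of all tested genes were, and 2 were higher and 5 lower with siYAP/TAZ#2, against 30.3% and 9.44%. CCND1, CDK2 and CDK6 were called lower with both combinations under either scaling, whereas CCND3, CCNE1 and CDK4 lost their siYAP/TAZ#1 calls (log2 changes of -0.09, -0.16 and -0.15).

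The TPM values as deposited held fewer calls. A single gene took 5.99 to 19.7% of the TPM of a library, and limma on log2(TPM + 1) of the values as deposited called no member changed with siYAP/TAZ#1 and 1 with siYAP/TAZ#2, CCND1. On that scale the median of all tested genes moved by 0.19 with siYAP/TAZ#1 and 0.24 with siYAP/TAZ#2. After the TPM of the tested genes were rescaled between libraries, an analysis chosen after seeing the data, limma called 1 member higher and 7 lower with siYAP/TAZ#1, where it called 11.7% and 13.6% of all tested genes. It called 0 members higher and 5 lower with siYAP/TAZ#2, against 14.0% and 15.4%. The additional call was CCNE2, at -0.50 log2 with siYAP/TAZ#1 (limma adjusted p = 0.0179), and on this scale its change with siYAP/TAZ#2 was -0.16, of opposite sign to that from the counts.

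**Figure D4:**
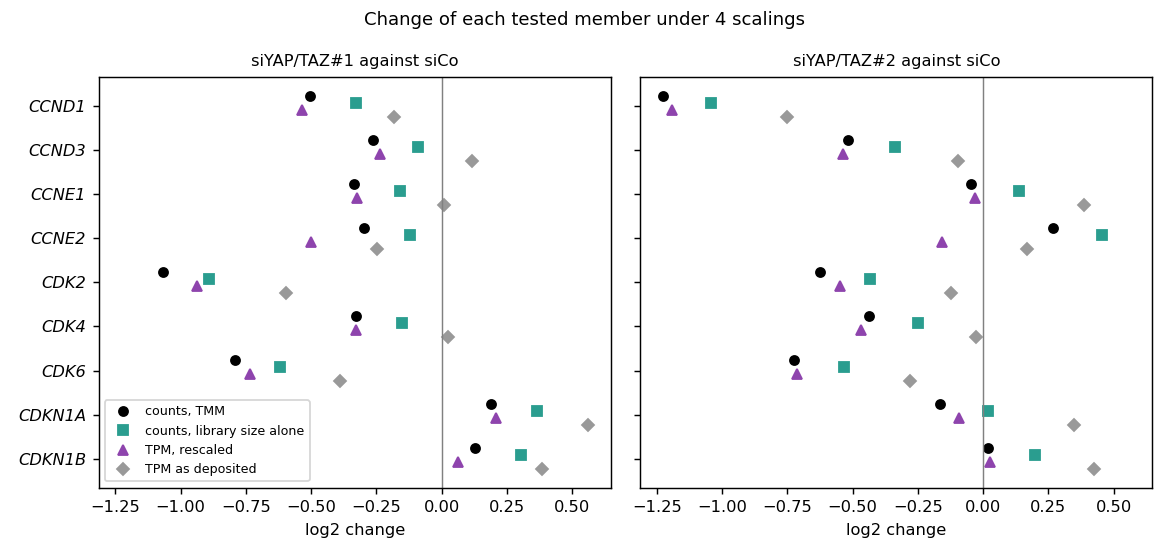
Log2 change against siCo (horizontal axes) of the 9 tested members under 4 scalings: counts with TMM, counts by library size alone, TPM rescaled between libraries and TPM as deposited. The widest gap between counts with TMM and rescaled TPM is that of CCNE2, and rescaled TPM lies on either side of counts with TMM, depending on the member. Library size alone and TPM as deposited lie to the right of counts with TMM for every member except CCNE2 with siYAP/TAZ#2 on TPM as deposited.

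Across the 12 libraries some pairs of members varied together (Pearson r of log2 CPM, a description, since libraries of a group share their treatment). CCND1 and CCND3 went together at r = 0.935, and at 0.953 when each library was taken as its deviation from the group mean. Replicate 1 of siYAP/TAZ#2 was the highest library of its group for both. CDK6 went with CDK2 at 0.924 and with CDK4 at 0.922, which became 0.795 and 0.537 within groups. CDK2 went with CDK4 at 0.786 (0.847 within groups), and CCND1 with CDK4 at 0.874 (-0.481 within groups). CCND1 and CDK6, both lower after knockdown, had r = 0.688 over all libraries but -0.847 within groups, where replicate 1 of siYAP/TAZ#2 was the highest library of its group for CCND1 and the lowest for CDK6.

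Among the 15406 other genes searched, those most like CCND1 were POM121, LRRC8A and SDE2 (r = 0.995 each), and those most like CCND3 were PPP1R18 (0.986), HMGA1 and LRRK1 (0.984 each). For CDK6 the closest was TEAD1 (0.995), a DNA-binding partner of YAP and TAZ, then TM4SF1 (0.993). CDK2 was most like RRN3 and PTPRG (0.995) and SLC26A2 (0.994), and CDK4 most like ELOVL1 (0.990), ERGIC1 (0.989) and PSMD11 (0.986). The closest genes were less close for the remaining members: SYNJ2 (0.966), SPNS1 and CNOT11 for CDKN1A, TUT7 (0.949), ZNF532 and HELQ for CCNE2, GTF2I (0.946), CHPT1 and SUMO3 for CCNE1, and DUSP28 (0.914), CCDC17 and DBNDD2 for CDKN1B.

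Promoter windows of 300 bases (250 before to 50 after an annotated start, RefSeq on GRCh38.p14) were found for 6 of the 10 members, with 9 windows in all; CCND1, CCND2, CCNE2 and CDK2 had no entry. The windows of the reduced members CDK4 (chr12:57752261-57752560, minus strand), CCND3 (chr6:41941759-41942058, minus strand) and CDK6 (chr7:92836524-92836823, minus strand) are shown because each holds a match to a searched motif, and that of CDKN1A (chr6:36678464-36678763, plus strand) because its change had the other sign with siYAP/TAZ#1 and it holds none. Capitals mark the TEAD core CATTCC or the E-box CACGTG bound by MYC with MAX, both searched on both strands; sequences run 5′ to 3′ on the strand of the gene.
CDK4: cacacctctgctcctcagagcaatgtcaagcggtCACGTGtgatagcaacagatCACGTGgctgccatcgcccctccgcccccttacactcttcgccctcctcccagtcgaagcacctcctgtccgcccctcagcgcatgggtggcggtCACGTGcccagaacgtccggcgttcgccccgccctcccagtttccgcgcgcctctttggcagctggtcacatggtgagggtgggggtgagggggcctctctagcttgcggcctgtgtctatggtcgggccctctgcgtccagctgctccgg
CCND3: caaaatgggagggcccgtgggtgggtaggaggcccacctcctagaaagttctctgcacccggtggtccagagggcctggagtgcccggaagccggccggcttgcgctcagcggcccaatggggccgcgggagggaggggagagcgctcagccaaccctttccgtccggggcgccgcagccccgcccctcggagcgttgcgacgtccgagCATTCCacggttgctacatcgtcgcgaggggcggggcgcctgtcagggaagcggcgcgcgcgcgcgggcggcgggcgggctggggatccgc
CDK6: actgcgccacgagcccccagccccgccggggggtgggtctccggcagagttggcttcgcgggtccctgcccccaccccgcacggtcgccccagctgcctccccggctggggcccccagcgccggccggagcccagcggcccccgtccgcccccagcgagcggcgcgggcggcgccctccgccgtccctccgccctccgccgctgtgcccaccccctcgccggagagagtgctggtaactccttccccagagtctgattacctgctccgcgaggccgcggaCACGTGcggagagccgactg
CDKN1A: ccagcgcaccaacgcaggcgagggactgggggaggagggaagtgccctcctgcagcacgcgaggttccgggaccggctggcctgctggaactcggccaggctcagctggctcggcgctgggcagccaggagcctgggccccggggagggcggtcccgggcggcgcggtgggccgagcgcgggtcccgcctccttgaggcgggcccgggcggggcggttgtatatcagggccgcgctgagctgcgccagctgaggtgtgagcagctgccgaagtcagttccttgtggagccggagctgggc

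The CDK4 window held 3 E-boxes, starting at positions -216, -196 and -101 from the start site. The CDK6 window held 1, at position 31 downstream, and 7.26% of the 35116 promoter windows of this length held at least 1. The CCND3 window held a TEAD core starting at position -41, as 14.0% of all windows hold one. Neither motif was found in the other windows of CCND3 and CDK6 or in those of CCNE1, CDKN1A and CDKN1B, and the E2F motifs TTTCGCGC and TTTGGCGC, present in 1.15% of all windows, were in none of the 9. A match describes letters in the window and says nothing of binding.

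Other genes of the G1 machinery were taken in lists by function, whose medians below are log2 changes with siYAP/TAZ#1 and then siYAP/TAZ#2, beside a median of 0.02 for all tested genes with either. The counts of each list stand beside these shares of all tested genes: 18.5% lower and 16.4% higher with siYAP/TAZ#1, and 19.2% and 19.0% with siYAP/TAZ#2. Under library size alone the shares were 8.83% lower and 27.2% higher with siYAP/TAZ#1, and 9.44% and 30.3% with siYAP/TAZ#2. CDKN1C, the third CIP/KIP inhibitor, was low in all groups and rose with both combinations. It averaged 2.37 CPM in siYAP/TAZ#1, 2.47 CPM in siYAP/TAZ#2 and 1.15 CPM in siCo libraries, log2 changes of 1.06 (edgeR adjusted p = 0.00609) and 1.12 (edgeR adjusted p = 0.00388). CDKN2C, an INK4 inhibitor of CDK4 and CDK6, rose with siYAP/TAZ#2 by 0.42 (edgeR adjusted p = 0.00235) and had 0.08 with siYAP/TAZ#1 (edgeR adjusted p = 0.593). CDKN2D was not called with either. The INK4 genes CDKN2A and CDKN2B were at 0 to 4.06 estimated counts summed over any group and were not tested. Of the 3 tested inhibitors, 1 was thus higher with siYAP/TAZ#1 and 2 with siYAP/TAZ#2, with none lower (medians 0.08 and 0.42). Scaled by library size alone, 2 of the 3 were higher with each combination, CDKN2C being at 0.25 with siYAP/TAZ#1 (edgeR adjusted p = 0.0248).

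Genes that activate or fold the CDKs were lower: 4 of 5 with siYAP/TAZ#1 and 3 of 5 with siYAP/TAZ#2, with none higher (medians -0.38 and -0.30). CDC25A, the phosphatase that removes an inhibitory phosphate from CDK2, averaged 37.6 CPM in siYAP/TAZ#1, 10.2 CPM in siYAP/TAZ#2 and 56.4 CPM in siCo libraries, log2 changes of -0.58 (edgeR adjusted p = 6.18e-07) and -2.46 (edgeR adjusted p = 1.43e-13). CCNH, a subunit of the CDK-activating kinase, fell by 0.43 and 0.52 log2 with siYAP/TAZ#1 and siYAP/TAZ#2, and CDC37, a co-chaperone of CDK4, by 0.37 and 0.30. CDK7 was the other gene lower with siYAP/TAZ#1. With scaling by library size alone, 1 gene of the list was lower with siYAP/TAZ#1, and 2 were lower and 1 higher with siYAP/TAZ#2. The higher one was MNAT1, which was also called without siYAP/TAZ#2 replicate 1 (0.21 log2, edgeR adjusted p = 0.03) and not with it (0.13, edgeR adjusted p = 0.279).

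Components of the ubiquitin ligases that act on G1 cyclins and CIP/KIP inhibitors were lower for 8 of 13 genes with each combination, and higher for 1 with siYAP/TAZ#1 (AMBRA1, an adaptor for the destruction of D-type cyclins) and 2 with siYAP/TAZ#2 (AMBRA1 and FBXO4). The list medians were -0.22 with each. SKP2, the F-box protein that targets p27, averaged 38.8 CPM in siYAP/TAZ#1, 11.9 CPM in siYAP/TAZ#2 and 53.1 CPM in siCo libraries. Its log2 changes were -0.45 (edgeR adjusted p = 3.15e-05) and -2.16 (edgeR adjusted p = 1.7e-12). CKS1B, the partner of SKP2 in recognising p27, fell by 0.54 and 0.51 log2 with siYAP/TAZ#1 and siYAP/TAZ#2, and CUL4A, a cullin scaffold, by 0.42 and 0.38. With scaling by library size alone, 5 of the 13 were lower with each combination, 3 higher with siYAP/TAZ#1 and 2 higher with siYAP/TAZ#2.

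The RB family with its E2F and DP partners, downstream of the members, split between the combinations. With siYAP/TAZ#1, 4 of 10 were lower (RB1, RBL2, E2F4 and TFDP1) and 2 higher (E2F2 and TFDP2), while with siYAP/TAZ#2 7 were lower and none higher (medians -0.23 and -0.40). The 2 of 10 higher with siYAP/TAZ#1 were near the 16.4% of all tested genes. Under library size alone the counts were 4 lower and 2 higher with siYAP/TAZ#1, and 4 lower and 1 higher with siYAP/TAZ#2. The pocket protein RBL2 averaged 24.6 CPM in siYAP/TAZ#1, 51.9 CPM in siYAP/TAZ#2 and 52.4 CPM in siCo libraries, and differed between the combinations by -1.08 log2 (edgeR adjusted p = 2.75e-09). E2F5, a repressor E2F, did the opposite, with 17.6 CPM in siYAP/TAZ#1, 3.93 CPM in siYAP/TAZ#2 and 17.3 CPM in siCo libraries, a difference of 2.16 log2 between the combinations (edgeR adjusted p = 5.18e-11). E2F4 fell with both, by 0.52 and 0.45 log2 with siYAP/TAZ#1 and siYAP/TAZ#2.

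The cyclins of S and G2 phase with their kinase CDK1 were lower for 4 of 5 genes with siYAP/TAZ#1 (CCNA2, CCNB1, CCNB2 and CDK1) and for all 5 with siYAP/TAZ#2, where CCNF joined them (medians -0.31 and -0.33). CCNA2, the cyclin A that follows cyclin E on CDK2, averaged 53.7 CPM in siYAP/TAZ#1, 36.9 CPM in siYAP/TAZ#2 and 76.6 CPM in siCo libraries, log2 changes of -0.51 (edgeR adjusted p = 3.42e-06) and -1.06 (edgeR adjusted p = 1.18e-09). CCNB1 fell by 0.31 and 0.33 log2 with siYAP/TAZ#1 and siYAP/TAZ#2. With scaling by library size alone, 2 of the 5 were lower with each combination. Without siYAP/TAZ#2 replicate 1, 4 of the 5 were lower with siYAP/TAZ#2, and CDK1 was at -0.20 log2 (edgeR adjusted p = 0.086).

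Among the FOXO factors, which can drive transcription of CDKN1B, and MDM2, a ubiquitin ligase, 2 of 4 genes were higher with each combination (FOXO1 and FOXO4), with none lower with siYAP/TAZ#1 and 1 lower with siYAP/TAZ#2 (medians 0.30 and 0.17). FOXO4 rose by 0.83 and 0.72 log2 and FOXO1 by 0.53 and 0.38 with siYAP/TAZ#1 and siYAP/TAZ#2. MDM2 was the gene lower with siYAP/TAZ#2 (-0.51 log2, edgeR adjusted p = 0.00045), and it was at 0.07 with siYAP/TAZ#1 (edgeR adjusted p = 0.639). Without siYAP/TAZ#2 replicate 1, 1 of the 4 was higher with siYAP/TAZ#2, FOXO4, and FOXO1 was at 0.25 log2 (edgeR adjusted p = 0.106).

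Among 9 other cyclins and CDKs, 8 were tested (CDK14 was not). CCNG1 and CCNG2, cyclins linked to arrest and not to CDK activation, were the 2 genes higher with each combination. Of all tested genes, 16.4% were higher with siYAP/TAZ#1 and 19.0% with siYAP/TAZ#2. CCNG1 averaged 86.3 CPM in siYAP/TAZ#1, 61.6 CPM in siYAP/TAZ#2 and 33.04 CPM in siCo libraries, log2 changes of 1.38 (edgeR adjusted p = 3.03e-07) and 0.90 (edgeR adjusted p = 2.5e-05). CCNG2 rose by 1.44 and 1.17 log2 with siYAP/TAZ#1 and siYAP/TAZ#2. CCNY and CDK8 were lower with both (CCNY by 0.29 and 0.79 log2), and CCNC, the cyclin of CDK8, was lower with siYAP/TAZ#1. The list medians were -0.12 and 0.02, and under library size alone 3 of its genes were higher and 1 lower with each combination.

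**Figure D5:**
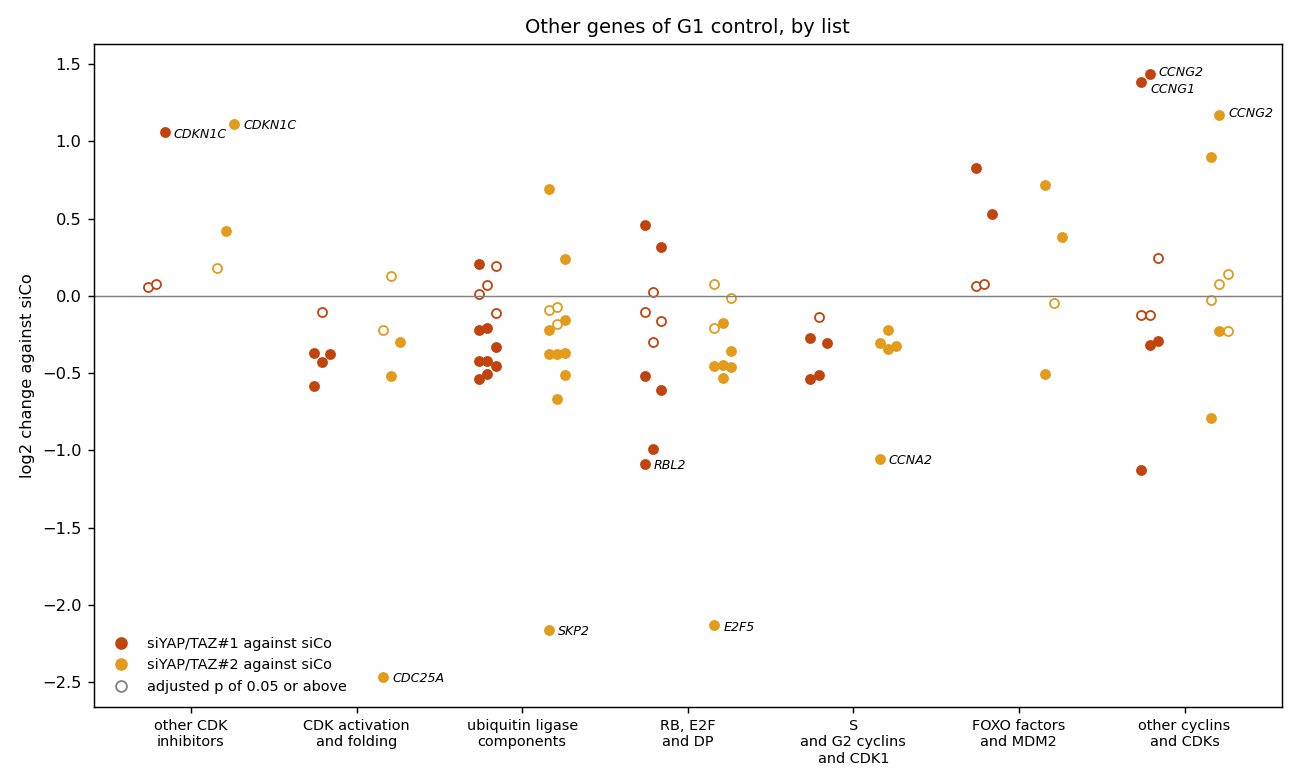
Log2 change against siCo (vertical axis, counts with TMM) of the tested genes of 7 lists of other cell cycle genes, for siYAP/TAZ#1 and siYAP/TAZ#2; filled points have an adjusted p under 0.05 and the named genes past 1 log2 are labelled. CDC25A (-2.46), SKP2 (-2.16) and E2F5 (-2.13) lie far below their lists with siYAP/TAZ#2, and CDKN1C and CCNG2 lie above 1 with both combinations.

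Where the combinations differed among these genes, the differences were large for some. CDC25A was higher in siYAP/TAZ#1 than in siYAP/TAZ#2 by 1.88 log2 (edgeR adjusted p = 7.52e-12), SKP2 by 1.71 (edgeR adjusted p = 5.03e-11) and CCNA2 by 0.54 (edgeR adjusted p = 4.78e-06), as CCND1 was by 0.72. From counts with TMM, YAP1 and WWTR1 did not differ by a called amount between the combinations (0.11 log2 with edgeR adjusted p = 0.367, and 0.02 with edgeR adjusted p = 0.897). On rescaled TPM WWTR1 was higher in siYAP/TAZ#1 than in siYAP/TAZ#2 by 0.37 log2 (limma adjusted p = 0.0247). YAP1 differed there by 0.18 (limma adjusted p = 0.201). Of the cell type markers, CDH1 was higher in siYAP/TAZ#1 (53.6 CPM) than in siYAP/TAZ#2 (37.8 CPM), with 25.5 CPM in siCo libraries, and COL1A1 was higher in siYAP/TAZ#1 than in siYAP/TAZ#2 by 0.38 log2 (edgeR adjusted p = 0.0264). Of the 11 markers, 8 were tested. With siYAP/TAZ#1, 4 were higher than in siCo (EPCAM, CDH1, COL1A1 and NAPSA), where 16.4% of all tested genes were. With siYAP/TAZ#2, 3 were higher (EPCAM, CDH1 and NAPSA) and 1 lower (KRT18), against 19.0% and 19.2% of all tested genes. EPCAM was at 0.46 log2 with siYAP/TAZ#2 once replicate 1 of that group was left out (edgeR adjusted p = 0.0558), and KRT18 at -0.07 with scaling by library size alone (edgeR adjusted p = 0.422). Their part in the differences of the members was not tested.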

How the data were processed

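RNA-seq was analysed from 2 deposited tables per library, 12 libraries in 3 groups of 4, grouped by sample title. The authors deposited estimated counts per Ensembl gene and TPM values; kallisto 0.4.6, Trim Galore 0.6.4 and GRCh38.p13 are named in the submitters' processing notes. The step from transcripts to genes, and strandedness, are not given in the sources used here. Estimated counts were rounded, and edgeR 4.0.16 (R 4.3.3) was run with these settings (filterByExpr defaults, TMM, a model with group alone over all 12 libraries, quasi-likelihood F test, Benjamini-Hochberg adjustment over 21581 genes, called at adjusted p under 0.05); the fit was tested on simulated data. A change of 1 estimated count was worth 0.0250 to 0.0375 CPM. TPM means of the members in siCo libraries carry SD, and the members' changes against siCo in the main fit carry SE or 95% intervals. The CPM means and changes of list genes and markers are printed without them. Proportions within a library used TPM and two-sided exact permutation tests, adjusted over 15 tests. The same proportions were also taken from CPM. Libraries of a group differed by more than sampling noise (chi-square per degree of freedom 3.40 to 65.5), so all were kept. The edgeR p-values set each group difference against the spread between libraries, estimated over all 3 groups. Alternatives were library size alone, DESeq2 1.42.0 (test and size factors), no filter, the 2 groups alone, a replicate block, limma 3.58.1 on log2(TPM + 1) and log2(TPM + 0.1), and each library left out. The members and lists were chosen with earlier results of these data known. Named genes were the members, YAP1 and WWTR1, up to 3 genes of each list with the smallest p for the mean of both combinations, and the 3 genes most like each member with at least 1 CPM. RB1, TFDP1, E2F2, TFDP2, AMBRA1, FBXO4, CDK7, MNAT1, CCNB2, CDK1, CCNC and CDK8 were named outside this rule, after their values were seen, to spell out small counts. Some genes that these rules name are not reported here.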

Additional observations from a re-analysis of the deposited data

Results flagged for a closer look

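Of 42 sets of 4 libraries examined for a value far from the rest of its group, 2 held one, and chance gives about 1 in 20. CDK2 in siCo replicate 4 was the highest of its group at 74.35 CPM, where the other siCo libraries lay between 69.5 and 70.04 CPM; all knockdown libraries were lower still. The inhibitor to CDK ratio in siYAP/TAZ#2 replicate 1 was 0.8136, where the other siYAP/TAZ#2 libraries lay between 0.6003 and 0.614. The same library was the highest or lowest of its group for 7 of 9 members, but so were siYAP/TAZ#1 replicates 2 and 4.

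For 5 members the changes with the combinations differed from each other, by edgeR's quasi-likelihood test of siYAP/TAZ#1 against siYAP/TAZ#2. The change with siYAP/TAZ#1 minus that with siYAP/TAZ#2 was 0.72 log2 for CCND1 and 0.36 for CDKN1A, and it was -0.29 for CCNE1, -0.57 for CCNE2 and -0.44 for CDK2.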

How the results depend on the processing

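Of 486 member results from counts under alternatives, 447 kept their side of the threshold, 27 lost a call, 11 gained one and 1 called change reversed: CDKN1A with siYAP/TAZ#2, at 0.02 log2 with library size alone. Among the 447, 7 uncalled changes near 0 changed sign, CCNE1 and CDKN1B with siYAP/TAZ#2 (such as 0.14 for CCNE1 with library size alone). limma on log2(TPM + 1) called 1892 genes and 0 members with siYAP/TAZ#1, 3717 and 1 with siYAP/TAZ#2, and 117 and 0 between the combinations. With log2(TPM + 0.1) it called 2309, 4067 and 118 genes, and with all genes above 0 it called 875, 2139 and 52, each with 0, 1 and 0 members. In these 3 TPM analyses, 4 changes called from the counts reversed: CCND3 with siYAP/TAZ#1 (0.116, 0.117 and 0.116 log2), CCNE1 with siYAP/TAZ#1 (0.010, 0.009 and 0.010), CDK4 with siYAP/TAZ#1 (0.023 in each) and CDKN1A with siYAP/TAZ#2 (0.347, 0.351 and 0.347); the cause was not tested. Uncalled changes of CCNE1 with siYAP/TAZ#2 (0.39 on log2(TPM + 1)) and of CDKN1B between the combinations (-0.04) also changed sign there. Rescaled TPM, chosen after seeing the data, called 1703 genes between the combinations, where the counts called 3262 (share higher 53.2% and 45.8%), and CCNE1 and CCNE2 were then not called between them (limma adjusted p = 0.0861 and 0.181). Leaving out 1 library gave 6595 to 9174 genes with siYAP/TAZ#1, 7430 to 9507 with siYAP/TAZ#2 and 2541 to 5127 between the combinations, the last without siYAP/TAZ#2 replicate 1, and 5 to 7, 5 to 6 and 4 to 7 members called. Among these, CCNE2 with siYAP/TAZ#1 was called only without siCo replicate 1 (-0.41 log2, edgeR adjusted p = 0.0366). The replicate numbers did not pair the libraries throughout. Same-numbered libraries correlated at -0.153 to 0.208 as deviations from group means, and differently numbered libraries at -0.283 to 0.204. Of the 12 libraries, 5 were closest to one with their own number. For replicate 4 every same-numbered pair was positive: 0.193 (siCo with siYAP/TAZ#1), 0.148 (siCo with siYAP/TAZ#2) and 0.208 (between the combinations). With the replicate block 7, 6 and 6 members and 7621, 8266 and 3266 genes were called, CCND3 being the added member between the combinations (edgeR adjusted p = 0.0291). At about 1 count per 0.03 CPM, depth limits CCNE2 most among the tested members, and CCND2 could not be compared.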
